A study of Mus musculus with 6 samples.

Results

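The mitochondrial ribosomal protein genes described here are the protein-coding mouse genes whose symbols begin with Mrpl or Mrps followed by a number. They were found by joining the NCBI gene identifiers of the deposited expression table to symbols and by keeping those that averaged at least 1 FPKM over the 6 libraries. FPKM counts sequenced fragments relative to transcript length in kilobases and to the total mapped in the library. The rule found 78 genes of the 18446 in the table and of the 10347 that averaged at least 1 FPKM. No gene with such a symbol was lost to the expression limit. Mrpl17 had the lowest mean, 4.73 FPKM, followed by Mrpl57 with 8.35 FPKM, so no member lay near the limit. By the current view of the ribosome's structure, 51 members encode proteins of the large subunit and 26 proteins of the small subunit. Mrps36 encodes a protein now known as Kgd4, a part of the 2-oxoglutarate dehydrogenase complex of the citric acid cycle, and is not a ribosomal protein.

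RNA sequencing was done on naive CD4+ T cells, helper T cells that have not met their antigen, which were sorted as CD44lo CD62Lhi cells from spleen and lymph nodes of C57BL/6 mice aged 6 to 8 weeks. The groups were cells labelled Zak-KO (genotype Zak-/-) and wild-type (WT) cells, each taken at 0 h and after 6 h or 48 h of culture with antibodies against CD3 and CD28, which stand in for antigen and costimulation. All groups shared the sort, the strain and the culture, and the labels speak both of Zak-/- and of a deficiency limited to T cells without naming a Cre driver. Each of the 6 combinations of 2 genotypes and 3 times is 1 library, and how many mice gave cells to a library is not stated in the labels. Each group has a single library, and no difference below was given a test, an SD or a p-value, and every statement is about these libraries.

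Zak is the kinase encoded by Map3k20. Map3k20 stood at 0.10, 0.10 and 1.61 FPKM at 0, 6 and 48 h in libraries labelled Zak-deficient, against 0.17, 0.19 and 1.35 FPKM in WT libraries. Its level was therefore higher under the Zak-deficient label at 48 h, and a gene-level value cannot show a deleted exon, so these libraries are named by their label throughout. FPKM summed to between 496045 and 546113 per library, while the number of reads behind each library is unknown. The 6 of 7 listed CD4 T cell markers in the table (Cd3e, Cd3d, Cd3g, Cd4, Lck and Cd28) summed to 1649 to 1732 FPKM in every library, while the 2 CD8 markers summed to 8.88 to 12.8 FPKM and the 6 B cell markers to 3.54 to 8.22 FPKM. The 5 NK cell markers summed to 2.07 to 4.26 FPKM and 4 of 5 erythroid markers to 0.16 to 2.60 FPKM. The 8 myeloid markers differed with time. They summed to 11.7, 6.64 and 2.36 FPKM at 0, 6 and 48 h in libraries labelled Zak-deficient, against 14.0, 9.41 and 1.18 FPKM in WT libraries, and Cd14 was listed at 0 or at 0.04 FPKM in all of them. The part of these traces in the time differences was not tested.

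Mitochondria keep a ribosome of their own that makes the few proteins encoded by mitochondrial DNA, which are core subunits of the respiratory chain and of ATP synthase. Its ribosomal RNA is made inside the organelle, but all of its proteins are encoded in the nucleus, made in the cytosol and imported. Many of them descend from proteins of bacterial ribosomes, and others have no bacterial counterpart and are found only in mitochondria. Naive T cells are small resting cells with few mitochondria, and activation through the T cell receptor is known to bring growth, mitochondrial biogenesis and greater use of the respiratory chain.

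At 0 h the 78 genes were expressed at moderate levels. Their median level was 21.5 FPKM in the library labelled Zak-deficient and 21.6 FPKM in the WT library. Mrpl24, a protein near the exit of the peptide tunnel, was highest with 120.8 FPKM in the library labelled Zak-deficient and 125.5 FPKM in the WT library. Mrpl30 followed with 83.0 FPKM in the library labelled Zak-deficient and 75.4 FPKM in the WT library, and Mrps16 with 57.6 FPKM in each. The lowest was Mrpl17, at 2.28 FPKM in the library labelled Zak-deficient and 1.88 FPKM in the WT library. FPKM is divided by transcript length, so levels can be set beside each other between genes, although the proteins stand in equal number in a complete ribosome, save Mrpl12, which is present in several copies.

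After stimulation the median level was higher, and the order of the genes shifted. The median stood at 21.5, 28.5 and 39.2 FPKM at 0, 6 and 48 h in libraries labelled Zak-deficient, against 21.6, 29.8 and 39.8 FPKM in WT libraries. The summed share of the 78 genes in all FPKM was 0.379%, 0.499% and 0.606% at these times under the Zak-deficient label and 0.382%, 0.515% and 0.608% in WT. At 48 h Mrpl52 was the highest member, with 132.8 FPKM in the library labelled Zak-deficient and 126.6 FPKM in the WT library, and Mrpl24 had left the first place. Mrpl17 remained lowest at all times in all libraries. FPKM is a share of a library, and in bulk RNA fewer cells of a type and less RNA per cell cannot be told apart.

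**Figure D1:**
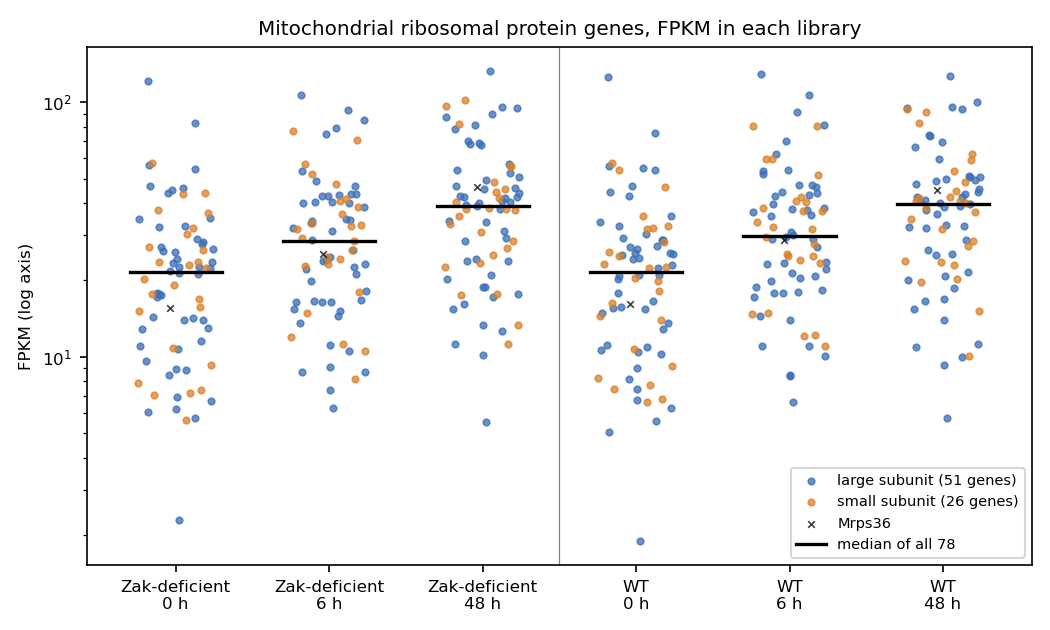
FPKM on a log axis of the 78 mitochondrial ribosomal protein genes in each of the 6 libraries, with 1 point per gene coloured by subunit, a cross for Mrps36 and a bar at the median. The medians step up with time under each label, to 39.2 FPKM under the Zak-deficient label at 48 h and 39.8 FPKM in the 48 h WT library, while the spread among genes stays wide.

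Differences in level are given as log2(FPKM+1), and members that differed at least 2-fold on that scale were counted. At 6 h against 0 h, 8 of 78 members were 2-fold or more higher in libraries labelled Zak-deficient, beside 9.08% of all 10347 genes, and 12 of 78 in WT libraries, beside 8.93% of all genes. None was 2-fold or more lower at 6 h under either label, beside 1.52% of all genes under the Zak-deficient label and 1.39% in WT. The count at 6 h under the Zak-deficient label is near the background. The count in WT was 7 with a common sum of FPKM or upper-quartile scaling and 4 with a pseudocount of 5 FPKM. The share of all genes was not counted under those settings, so whether these counts exceed it is unknown. By a 1.5-fold rule 28 members were higher under the Zak-deficient label, beside 16.7% of all genes, and 34 in WT, beside 17.0%. None was lower by that rule, beside 13.3% of all genes under the Zak-deficient label and 13.0% in WT. Most members were nevertheless higher: 65 of 78 were above their 0 h level in the library labelled Zak-deficient and 73 of 78 in the WT library. Of all 10347 genes, 4542 were above it under the Zak-deficient label and 4681 in WT. The median log2 difference of the members was 0.45 under the Zak-deficient label and 0.54 in WT. Over all genes it was -0.08 under the Zak-deficient label and -0.06 in WT.

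At 48 h against 0 h the counts were higher. In libraries labelled Zak-deficient 28 of 78 members were 2-fold or more higher, beside 18.4% of all genes, and in WT libraries 27 of 78, beside 17.8% of all genes. None was 2-fold or more lower, where 12.0% of all genes were under the Zak-deficient label and 12.3% in WT. By a 1.5-fold rule 57 members were higher under the Zak-deficient label, beside 29.7% of all genes, and 54 in WT, beside 28.2%. Mrpl24 alone was lower by that rule under each label, beside 23.4% of all genes under the Zak-deficient label and 24.7% in WT. The median log2 difference was 0.87 under the Zak-deficient label and 0.80 in WT, while over all genes it was 0.06 under the Zak-deficient label and 0.00 in WT. The median depended on the correction for base composition: centred on genes of like GC content and transcript length it was 0.59 under the Zak-deficient label and 0.60 in WT, and the count in WT was then 16 instead of 27. This centring was chosen after the data were seen.

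Between 6 h and 48 h fewer members differed. At 48 h against 6 h, 5 of 78 were 2-fold or more higher under the Zak-deficient label, beside 10.8% of all genes, and 4 of 78 in WT, beside 9.32%, so both counts lie below the background. By a 1.5-fold rule 24 were higher under the Zak-deficient label, beside 20.8% of all genes, and 16 in WT, beside 17.4%. None was lower by that rule under the Zak-deficient label, beside 16.4%, and Mrpl24 was lower in WT, beside 16.5%. No member was 2-fold or more lower, beside 6.55% of all genes under the Zak-deficient label and 6.14% in WT. The median log2 difference was 0.32 under the Zak-deficient label and 0.21 in WT.

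**Figure D2:**
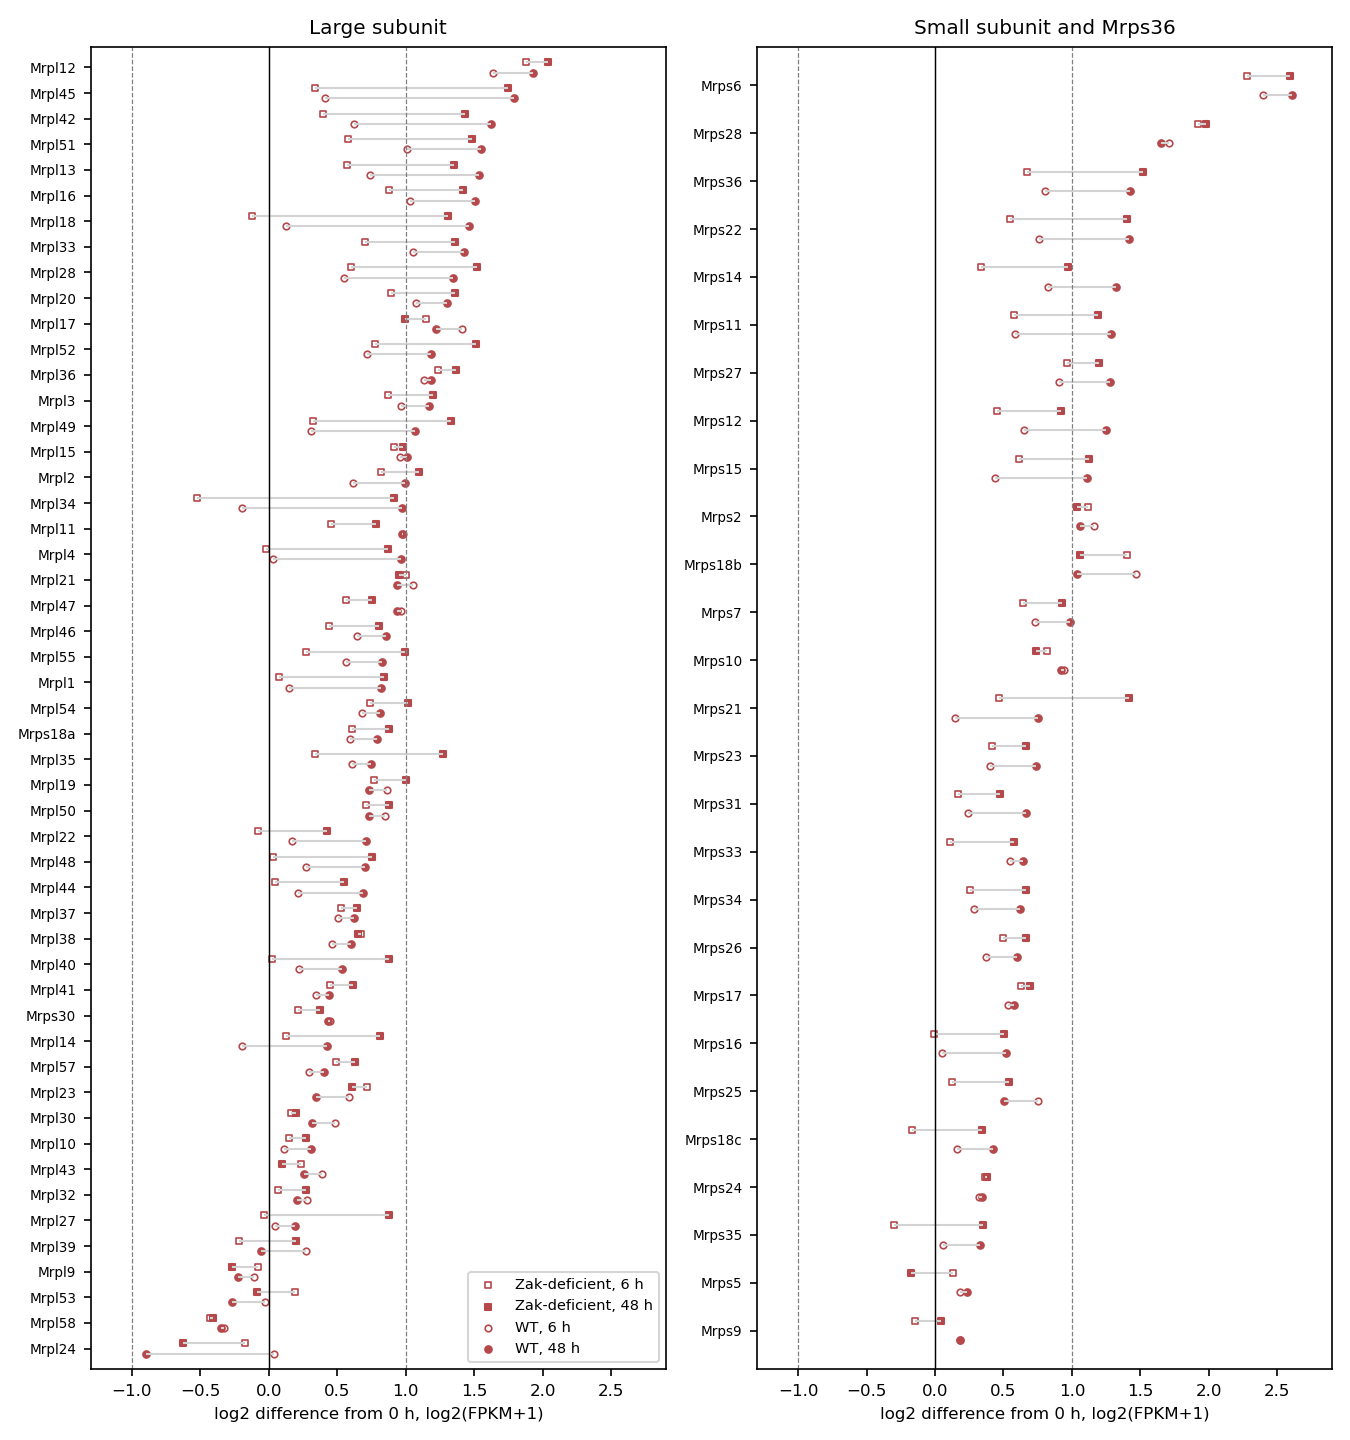
Difference in log2(FPKM+1) from 0 h for each large subunit gene (left) and each small subunit gene with Mrps36 (right), at 6 h (open) and 48 h (filled), with squares for libraries labelled Zak-deficient and circles for WT. Dashed lines mark 2-fold; Mrps6 lies farthest to the right, with 2.60 under the Zak-deficient label and 2.61 in WT at 48 h, and no point passes 2-fold on the left.

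Among the 30 large subunit genes with bacterial counterparts, the median log2 difference at 48 h was 0.97 under the Zak-deficient label and 0.95 in WT. At 6 h it was 0.51 under the Zak-deficient label and 0.59 in WT. Mrpl12 showed the greatest difference of the large subunit. It encodes the stalk protein that brings translation factors to the ribosome, and human MRPL12 is also known to bind the mitochondrial RNA polymerase. Mrpl12 (chromosome 11, 120484637 to 120488754, GRCm38) stood at 22.3, 84.7 and 94.8 FPKM at 0, 6 and 48 h under the Zak-deficient label, against 25.5, 81.3 and 99.6 FPKM in WT. It was 3.68-fold higher at 6 h and 4.11-fold at 48 h under the Zak-deficient label, and 3.11-fold and 3.80-fold in WT. Its partners at the base of the stalk did not share that size of difference. Mrpl10, which anchors the stalk, stood at 35.0, 38.8 and 42.4 FPKM under the Zak-deficient label, against 35.5, 38.3 and 44.2 FPKM in WT. Mrpl11 was low throughout, at 6.08, 8.70 and 11.2 FPKM under the Zak-deficient label and 5.07, 11.0 and 10.9 FPKM in WT.

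Single large subunit genes with bacterial counterparts took different courses. Mrpl3 and Mrpl2 encode relatives of bacterial proteins that lie close to the site of peptide bond formation. Mrpl3 stood at 17.8, 33.4 and 42.2 FPKM at 0, 6 and 48 h under the Zak-deficient label, against 17.8, 35.8 and 41.3 FPKM in WT. Mrpl2 stood at 22.5, 40.5 and 49.4 FPKM under the Zak-deficient label and 24.4, 37.9 and 49.7 FPKM in WT. Both genes had most of their 48 h level at 6 h. Mrpl4, by contrast, was level at 6 h, with 23.6, 23.2 and 44.0 FPKM under the Zak-deficient label and 22.9, 23.4 and 45.6 FPKM in WT. Mrpl18, a protein of the central protuberance, had a like course, at 34.7, 31.9 and 87.4 FPKM under the Zak-deficient label and 33.7, 36.9 and 94.5 FPKM in WT. Mrpl34 was lower at 6 h than at 0 h and higher at 48 h, with 26.4, 18.04 and 50.6 FPKM under the Zak-deficient label and 25.4, 22.0 and 50.8 FPKM in WT.

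Other large subunit genes with bacterial counterparts varied widely. Mrpl36, a zinc-binding protein, stood at 14.2, 34.8 and 38.1 FPKM under the Zak-deficient label, against 16.6, 37.5 and 38.9 FPKM in WT. Mrpl33 stood at 25.9, 42.6 and 67.9 FPKM under the Zak-deficient label and 25.4, 53.8 and 69.8 FPKM in WT. Mrpl32, which is matured by the inner membrane m-AAA protease before it joins the ribosome, moved little: 32.4, 34.0 and 39.3 FPKM under the Zak-deficient label and 32.5, 39.6 and 37.7 FPKM in WT. The lowest member, Mrpl17, was among the genes with the greatest 6 h difference, at 2.28, 6.27 and 5.53 FPKM under the Zak-deficient label and 1.88, 6.66 and 5.73 FPKM in WT. The pseudocount of 1 FPKM understates the fold of so low a gene, which was 2.22-fold under the Zak-deficient label and 2.66-fold in WT at 6 h. Mrpl13, Mrpl16, Mrpl20 and Mrpl28 were 2-fold or more higher at 48 h under both labels, with log2 differences from 1.35 to 1.52 under the Zak-deficient label and from 1.30 to 1.53 in WT. Those of Mrpl1, Mrpl14, Mrpl15, Mrpl19, Mrpl21, Mrpl35, Mrpl47 and Mrpl55 ran from 0.75 to 1.27 under the Zak-deficient label and from 0.42 to 1.01 in WT. Mrpl30, the second highest gene at rest, differed by 0.20 under the Zak-deficient label and 0.31 in WT.

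Among proteins that line or border the exit tunnel, the genes went different ways. Mrpl45, a mitochondria-specific protein that reaches into the tunnel and holds the ribosome to the inner membrane, was one of the latest to differ. Mrpl45 (chromosome 11, 97314923 to 97329920, GRCm38) stood at 12.99, 16.7 and 45.9 FPKM at 0, 6 and 48 h under the Zak-deficient label, against 13.5, 18.3 and 49.2 FPKM in WT. It was 3.35-fold higher at 48 h under the Zak-deficient label and 3.46-fold in WT, where it ranked behind only Mrps6 and Mrpl12 among all 78 members. Mrpl22 stood at 17.5, 16.5 and 23.8 FPKM under the Zak-deficient label and 15.6, 17.7 and 26.3 FPKM in WT. Mrpl23 had its highest value at 6 h under each label, with 45.0, 74.6 and 69.0 FPKM under the Zak-deficient label and 46.6, 70.3 and 59.4 FPKM in WT. In the 1 annotated Mrpl23 transcript examined, 66.7% of the 50-base stretches occur in another annotated gene, outside the table. The Mrpl23 value may include reads of that gene. Mrpl24 was lower at 48 h, with 120.8, 106.7 and 78.1 FPKM under the Zak-deficient label and 125.5, 129.1 and 66.8 FPKM in WT.

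The 21 mitochondria-specific genes of the large subunit had a median log2 difference at 48 h of 0.75 under the Zak-deficient label and 0.69 in WT. Here 6 of 21 under the Zak-deficient label and 5 of 21 in WT were 2-fold or more higher, beside 18.4% of all genes under the Zak-deficient label and 17.8% in WT, so the counts stood little above the background. Mrpl42 joined Mrpl45 at the upper end, with 32.5, 43.2 and 89.7 FPKM under the Zak-deficient label and 30.4, 47.2 and 95.7 FPKM in WT. Mrpl51 stood at 13.9, 21.2 and 40.5 FPKM under the Zak-deficient label, against 12.9, 26.9 and 39.6 FPKM in WT, and Mrpl52 at 46.0, 79.3 and 132.8 FPKM under the Zak-deficient label, against 55.2, 91.3 and 126.6 FPKM in WT. Mrpl44, whose protein has a fold related to ribonuclease III, was less than 2-fold higher at 48 h, at 14.0, 14.4 and 20.9 FPKM under the Zak-deficient label and 15.4, 18.01 and 25.4 FPKM in WT. Mrps18a and Mrps30 bear small subunit symbols, but their proteins sit in the large subunit. Mrps18a stood at 28.3, 43.7 and 52.7 FPKM under the Zak-deficient label and 28.8, 44.0 and 50.6 FPKM in WT, and Mrps30 at 22.4, 26.1 and 29.2 FPKM under the Zak-deficient label and 20.97, 29.0 and 28.6 FPKM in WT. Mrpl49 was 2-fold or more higher at 48 h under both labels, with log2 differences of 1.33 under the Zak-deficient label and 1.06 in WT. The log2 differences at 48 h of Mrpl37, Mrpl38, Mrpl40, Mrpl41, Mrpl46, Mrpl48, Mrpl50, Mrpl54 and Mrpl57 lay between 0.62 and 1.02 under the Zak-deficient label and between 0.41 and 0.85 in WT, and that of Mrpl43 was 0.09 under the Zak-deficient label and 0.26 in WT.

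In the small subunit, each of the 26 genes was above its 0 h level at 6 h and at 48 h in WT. Of all 10347 genes in WT, 4681 were so at 6 h and 5176 at 48 h. Mrps16 and Mrps35 lay close to their 0 h level at 6 h in WT, with log2 differences of 0.05 and 0.06. The direction of such small differences depends on the scaling. Of all 78 members, 5 were below 0 h at 6 h in WT, against 10 with a common sum and 11 with upper-quartile scaling. In libraries labelled Zak-deficient 22 of 26 small subunit genes were above their 0 h level at 6 h and 25 of 26 at 48 h. Of all genes, 4542 were so at 6 h and 5428 at 48 h under that label. The exception at 48 h was Mrps5, at 38.4 FPKM against 43.6 FPKM at 0 h. The 16 genes with bacterial counterparts had median log2 differences of 0.52 at 6 h and 0.92 at 48 h under the Zak-deficient label, and 0.56 and 0.95 in WT. Mrps6, whose bacterial relative binds the ribosomal RNA of the platform, had the greatest difference of all 78 members at each time and under each label. Mrps6 (chromosome 16, 92058336 to 92112227, GRCm38) stood at 15.1, 77.0 and 96.3 FPKM at 0, 6 and 48 h under the Zak-deficient label, against 14.5, 80.7 and 93.6 FPKM in WT. It was 4.85-fold higher at 6 h and 6.05-fold at 48 h under the Zak-deficient label, and 5.27-fold and 6.10-fold in WT. Slc5a3, a myo-inositol transporter gene, shares 13.8% of the 50-base stretches of the 1 annotated Mrps6 transcript examined. Slc5a3 was also higher, at 1.69, 11.0 and 8.85 FPKM under the Zak-deficient label and 2.0, 10.5 and 7.94 FPKM in WT. How reads were divided between Mrps6 and Slc5a3 is therefore uncertain. With annotated genes outside the table counted as well, 32.2% of the stretches were shared.

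Mrps28 was next among small subunit genes, with 5.64, 24.2 and 25.1 FPKM under the Zak-deficient label and 6.62, 24.0 and 22.9 FPKM in WT. Mrps28 (chromosome 3, 8802146 to 8923857, GRCm38) was 3.79-fold higher at 6 h under the Zak-deficient label and 3.28-fold in WT. Mrps2 had its full difference at 6 h as well, at 10.8, 24.6 and 23.2 FPKM under the Zak-deficient label and 10.7, 25.3 and 23.5 FPKM in WT. These genes were 2-fold or more higher at both times under both labels. Mrps12, a protein of the decoding site, differed later, at 23.6, 32.7 and 45.5 FPKM under the Zak-deficient label and 19.8, 31.6 and 48.4 FPKM in WT. Mrps7, which borders the path of the messenger RNA, stood at 22.9, 36.3 and 44.5 FPKM under the Zak-deficient label and 22.2, 37.4 and 44.8 FPKM in WT. Mrps16 was already among the highest at 0 h and differed little at 6 h, at 57.6, 57.3 and 82.2 FPKM under the Zak-deficient label and 57.6, 59.7 and 82.9 FPKM in WT. Mrps9 was nearly level, at 36.5, 32.9 and 37.7 FPKM under the Zak-deficient label and 32.5, 37.2 and 37.1 FPKM in WT. The log2 differences at 48 h of the other Mrps genes with bacterial counterparts, apart from Mrps5 and Mrps18c (Mrps10, Mrps11, Mrps14, Mrps15, Mrps17, Mrps21 and Mrps24), ran from 0.38 to 1.41 under the Zak-deficient label and from 0.35 to 1.32 in WT.

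The 10 mitochondria-specific small subunit genes had median log2 differences of 0.34 at 6 h and 0.67 at 48 h under the Zak-deficient label, and 0.47 and 0.65 in WT. Mrps22 stood at 7.88, 12.0 and 22.4 FPKM under the Zak-deficient label, against 8.25, 14.6 and 23.7 FPKM in WT. Mrps27, a protein with RNA-binding pentatricopeptide repeats, stood at 7.08, 14.8 and 17.5 FPKM under the Zak-deficient label and 7.48, 14.9 and 19.6 FPKM in WT. The remaining 7 apart from Mrps18b ranged in log2 difference at 48 h from 0.35 to 0.67 under the Zak-deficient label and from 0.32 to 0.74 in WT.

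The 3 mammalian relatives of bacterial S18, which occupy different places in the ribosome, did not follow the same course. Mrps18b, a small subunit protein, peaked at 6 h, with 26.2, 70.9 and 55.9 FPKM under the Zak-deficient label and 28.3, 80.1 and 59.1 FPKM in WT. It shares 63.7% of its 50-base stretches with other annotated genes outside the table, so its value may include their reads. Mrps18c, the form that takes the bacterial position in the small subunit, was higher at rest and differed by less than 1.5-fold, at 43.9, 38.8 and 56.0 FPKM under the Zak-deficient label and 46.2, 51.8 and 62.2 FPKM in WT. Mrps18a of the large subunit lay between them at 6 h, 1.53-fold higher under the Zak-deficient label and 1.51-fold in WT.

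Mrps36, the member outside the ribosome, stood at 15.6, 25.3 and 46.5 FPKM under the Zak-deficient label, against 16.1, 28.8 and 45.0 FPKM in WT. It was 2.87-fold higher at 48 h under the Zak-deficient label and 2.69-fold in WT. Of its 50-base stretches, 36.2% occur in other annotated genes outside the table, so its value may include their reads.

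Only 5 of 78 members under each label were below their 0 h level at 48 h. Of all 10347 genes, 4907 were below it under the Zak-deficient label and 5159 in WT. The members were Mrpl24, Mrpl58, Mrpl9, Mrpl53 and Mrps5 under the Zak-deficient label, and Mrpl24, Mrpl58, Mrpl9, Mrpl53 and Mrpl39 in WT. Mrpl24 (chromosome 3, 87918131 to 87923450, GRCm38) showed the greatest difference, 1.54-fold lower under the Zak-deficient label and 1.87-fold lower in WT. With all libraries brought to the same sum of FPKM, to the same upper quartile or centred on GC content and length it passed 2-fold in WT. It shares 38.0% of its 50-base stretches with the neighbouring gene Rrnad1, which stood at 26.3, 20.1 and 16.6 FPKM under the Zak-deficient label and 25.7, 22.1 and 13.2 FPKM in WT, so its own level is uncertain. Mrpl58 encodes a peptidyl-tRNA hydrolase built into the large subunit that frees peptides from stalled ribosomes. Mrpl58 was lower at 6 h and stayed there, with 54.3, 40.1 and 40.8 FPKM under the Zak-deficient label and 54.3, 43.1 and 42.4 FPKM in WT. Mrpl9 stood at 56.7, 53.6 and 46.9 FPKM under the Zak-deficient label and 56.0, 51.9 and 47.8 FPKM in WT. Mrpl53, whose annotated transcripts share all of their 50-base stretches with another annotated gene, stood at 17.2, 19.8 and 16.1 FPKM under the Zak-deficient label and 20.1, 19.7 and 16.5 FPKM in WT.

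The members that were 2-fold or more higher at 48 h reached that level at different times. For each, the 6 h log2 difference was taken as a percentage of the 48 h log2 difference, and both use the same 0 h library. The 48 h difference both chose the members and served as divisor, so the choice can lower the percentages. It left out Mrpl21, which was 2-fold or more higher at 6 h under both labels. Its 48 h log2 difference was 0.95 under the Zak-deficient label and 0.94 in WT. It also left out Mrpl34, which was lower at 6 h, with 48 h differences of 0.91 under the Zak-deficient label and 0.98 in WT. The median over 28 such members under the Zak-deficient label was 53.0%, and over 27 in WT it was 65.2%. These percentages were not computed over all genes, so whether the medians and the counts that follow differ from the background is unknown. Early genes, at 80% or more, numbered 7 under the Zak-deficient label and 10 in WT. Mrps6 was at 87.7% under the Zak-deficient label and 91.9% in WT, Mrpl12 at 92.1% under the Zak-deficient label and 84.9% in WT, and Mrps28 at 97.3% under the Zak-deficient label and 104% in WT. Late genes, under 40%, numbered 9 under the Zak-deficient label and 5 in WT. Mrpl18 was the latest of the chosen members, at -9.15% under the Zak-deficient label and 8.56% in WT. Mrpl45 followed at 19.5% under the Zak-deficient label and 23.1% in WT. The chosen members thus differed in timing by gene in both sets of libraries, and neither subunit held all early or all late genes among them.

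**Figure D3:**
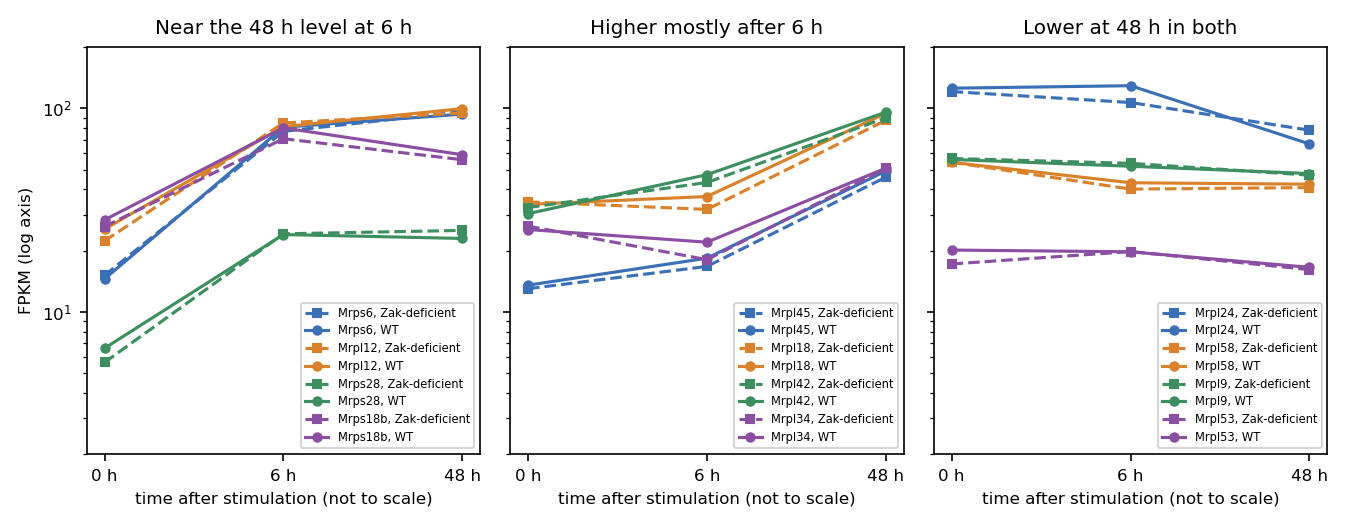
FPKM on a log axis at 0, 6 and 48 h for 12 members, with dashed lines and squares for libraries labelled Zak-deficient and solid lines and circles for WT. The left panel holds genes near their 48 h level at 6 h, the middle panel genes that were higher mostly after 6 h, and the right panel genes that were lower at 48 h; lines of the same gene lie close together under the labels.

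Promoters are printed for the 2 members with the highest and the 2 with the lowest 6 h difference in WT among those with a RefSeq promoter entry and a mean of 5 FPKM or more, so that the letters can be set beside the opposite responses. RefSeq promoters on GRCm38.p6 were found for 69 of the 78 members. The 260 bases shown run from 250 before the annotated start to 10 after it, 5′ to 3′ on the gene's strand, which is the plus strand for all 4. Capitals mark matches on either strand to the motif of nuclear respiratory factor 1 (NRF-1), to CCGGAA (the ETS core, bound by GABP among others), to the YY1 motif or to CACGTG (the E-box, bound by MYC among others). No shown matches overlap. Mrps6 is at chr16:92058086-92058345, Mrpl12 at chr11:120484387-120484646, Mrpl58 at chr11:115403502-115403761 and Mrpl34 at chr8:71464676-71464935.
Mrps6: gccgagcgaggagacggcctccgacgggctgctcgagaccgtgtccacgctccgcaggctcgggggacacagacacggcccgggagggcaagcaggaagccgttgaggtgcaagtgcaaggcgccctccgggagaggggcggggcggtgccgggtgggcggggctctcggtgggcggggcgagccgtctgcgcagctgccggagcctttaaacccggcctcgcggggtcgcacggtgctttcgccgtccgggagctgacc
Mrpl12: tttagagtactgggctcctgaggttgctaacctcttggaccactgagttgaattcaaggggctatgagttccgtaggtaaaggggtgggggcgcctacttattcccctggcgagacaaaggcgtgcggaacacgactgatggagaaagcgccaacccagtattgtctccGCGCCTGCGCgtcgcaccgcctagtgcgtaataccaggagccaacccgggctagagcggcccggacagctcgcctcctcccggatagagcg
Mrpl58: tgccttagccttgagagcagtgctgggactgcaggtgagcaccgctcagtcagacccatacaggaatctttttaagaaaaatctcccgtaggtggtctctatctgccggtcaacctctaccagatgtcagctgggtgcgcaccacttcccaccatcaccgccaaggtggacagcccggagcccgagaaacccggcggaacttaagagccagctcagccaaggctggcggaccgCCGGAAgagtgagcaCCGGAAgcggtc
Mrpl34: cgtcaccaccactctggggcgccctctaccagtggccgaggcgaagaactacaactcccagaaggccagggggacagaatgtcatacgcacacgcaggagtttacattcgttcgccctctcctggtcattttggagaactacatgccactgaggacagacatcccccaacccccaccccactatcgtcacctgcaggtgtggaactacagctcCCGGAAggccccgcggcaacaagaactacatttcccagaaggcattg

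None of the 4 motifs is in the Mrps6 window, although Mrps6 had the highest response. Mrpl12 holds an NRF-1 match that begins 81 bases before the start. Mrpl58 holds ETS matches that begin 17 and 2 bases before the start, and Mrpl34 holds an ETS match that begins 37 bases before it. A match is a description of letters and says nothing of binding in these cells.

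Over windows of 300 bases, from 250 before the start to 50 after it, the members' promoters often held the ETS core. It was present in 43 of 75 promoters of the 69 matched members (57.3%), against 14.9% of all 32851 promoters in the table and 30.1% of the 10626 promoters of protein-coding genes averaging at least 1 FPKM. The NRF-1 motif was in 11 of 75 (14.7%), against 3.02% of all and 7.19% of the expressed set. The YY1 motif was in 6 of 75 (8.0%), against 1.07% of all and 2.85% of the expressed set. The E-box was in 7 of 75 (9.33%), against 7.15% of all and 10.3% of the expressed set. In WT at 48 h the median log2 difference was 0.73 in 40 members with the ETS core and 0.92 in 29 without it, and 0.41 in 11 with the NRF-1 motif and 0.89 in 58 without it. It was 0.77 in 6 members with the YY1 motif and 0.82 in 63 without it. The E-box went the other way, with 0.996 in 5 members that hold it and 0.77 in 64 without it. The log2 differences ran from -0.35 to 1.55 with the ETS core and from -0.90 to 2.61 without it, and from -0.23 to 1.93 with the NRF-1 motif and from -0.90 to 2.61 without it, so the ranges overlapped. These medians are descriptions, and a difference between them was not tested.

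Genes of the same pathway did not all behave as the ribosomal proteins did. Of 5 mitoribosomal proteins that carry other symbols (Dap3, Ptcd3, Chchd1, Aurkaip1 and Gadd45gip1), all were above 0 h at 6 h and 48 h under both labels. Their medians at 48 h were 0.60 under the Zak-deficient label and 0.65 in WT. Of all 10347 genes, 4542 at 6 h and 5428 at 48 h were above 0 h under the Zak-deficient label. In WT 4681 at 6 h and 5176 at 48 h were above it. Chchd1, a small subunit protein, was 2.15-fold higher at 6 h in WT, where it stood at 57.6 FPKM against 26.2 FPKM at 0 h. The 25 listed genes for assembly of the ribosome and modification of its RNA had medians near 0, 0.08 at 6 h and 0.25 at 48 h under the Zak-deficient label, and 0.18 and -0.07 in WT. At 6 h 4 of 25 were 2-fold or more higher under each label, beside 9.08% of all genes under the Zak-deficient label and 8.93% in WT. Mrm3, a methyltransferase of the large ribosomal RNA, stood at 2.23, 10.3 and 9.55 FPKM at 0, 6 and 48 h under the Zak-deficient label and 1.68, 12.0 and 9.10 FPKM in WT. Noa1, a GTPase of mitochondrial ribosome assembly, stood at 6.15, 14.5 and 17.9 FPKM under the Zak-deficient label and 4.71, 13.8 and 19.8 FPKM in WT. Nsun4, another methyltransferase of mitochondrial ribosomal RNA, was lower at 48 h, at 9.44 FPKM against 18.2 FPKM at 0 h under the Zak-deficient label, and at 9.27 against 19.9 FPKM in WT.

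Of 14 expressed mitochondrial translation factors, 2 at 6 h and 5 at 48 h were 2-fold or more higher under each label, where all genes passed at 9.08% and 8.93% at 6 h and at 18.4% and 17.8% at 48 h. Others went the opposite way: Mtif3, an initiation factor, stood at 9.70 FPKM at 48 h against 12.03 FPKM at 0 h under the Zak-deficient label, and at 9.85 against 12.3 FPKM in WT. Tsfm, the exchange factor of the elongation factor Tufm, stood at 5.68, 14.6 and 24.4 FPKM under the Zak-deficient label and 7.48, 13.6 and 23.8 FPKM in WT. Slirp, a partner of the mitochondrial RNA-binding protein Lrpprc, stood at 16.6, 30.2 and 50.8 FPKM under the Zak-deficient label and 16.2, 37.0 and 42.1 FPKM in WT. Lrpprc itself was highest at 6 h, at 10.4, 28.8 and 21.9 FPKM under the Zak-deficient label and 12.5, 29.6 and 24.3 FPKM in WT. The 17 mitochondrial aminoacyl-tRNA synthetases had medians at 48 h of 0.31 under the Zak-deficient label and 0.43 in WT, and 2 of 17 under the Zak-deficient label and 0 of 17 in WT were 2-fold or more higher, both below the share of all genes. Of 8 genes for mitochondrial DNA transcription and upkeep, none was 2-fold or more higher, and Polg2, the accessory subunit of the mitochondrial DNA polymerase, was lower at 48 h, at 7.31 against 32.1 FPKM at 0 h under the Zak-deficient label and 6.67 against 32.2 FPKM in WT. The 8 expressed regulators of mitochondrial biogenesis had a median at 48 h of 0.26 under each label. Of these, 2 of 8 were 2-fold or more higher at 48 h under each label, beside 18.4% and 17.8% of all genes. They were Myc, at 8.75, 185 and 87.0 FPKM under the Zak-deficient label and 11.5, 166 and 98.8 FPKM in WT, and Pprc1, a coactivator related to the biogenesis regulator Ppargc1a, at 11.8, 54.6 and 26.7 FPKM under the Zak-deficient label and 11.6, 41.5 and 29.6 FPKM in WT. Gabpa and Yy1 were below 0 h at 48 h, with log2 differences of -0.37 and -0.17 under the Zak-deficient label and -0.20 and -0.11 in WT. That of Nrf1 was 0.30 under the Zak-deficient label and 0.36 in WT. None of the 13 listed messages encoded by mitochondrial DNA was found by symbol among the genes measured, so they could not be analysed here.

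Set against large lists, the ribosomal proteins of mitochondria stood with the respiratory chain and apart from the ribosomal proteins of the cytosol in the size of the difference. The 78 expressed genes of the respiratory chain and ATP synthase had medians of 0.36 at 6 h and 0.86 at 48 h under the Zak-deficient label, and 0.43 and 0.84 in WT; 31 of 78 were 2-fold or more higher at 48 h under each label, beside 18.4% and 17.8% of all genes. The 81 cytosolic ribosomal protein genes had medians of -0.06 at 6 h and 0.14 at 48 h under the Zak-deficient label and 0.09 and 0.02 in WT, with 3 of 81 under the Zak-deficient label and 1 of 81 in WT at 2-fold or more higher at 48 h. They made up 28.2% to 30.5% of all FPKM in each library. These differences between lists were not tested.

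**Figure D4:**
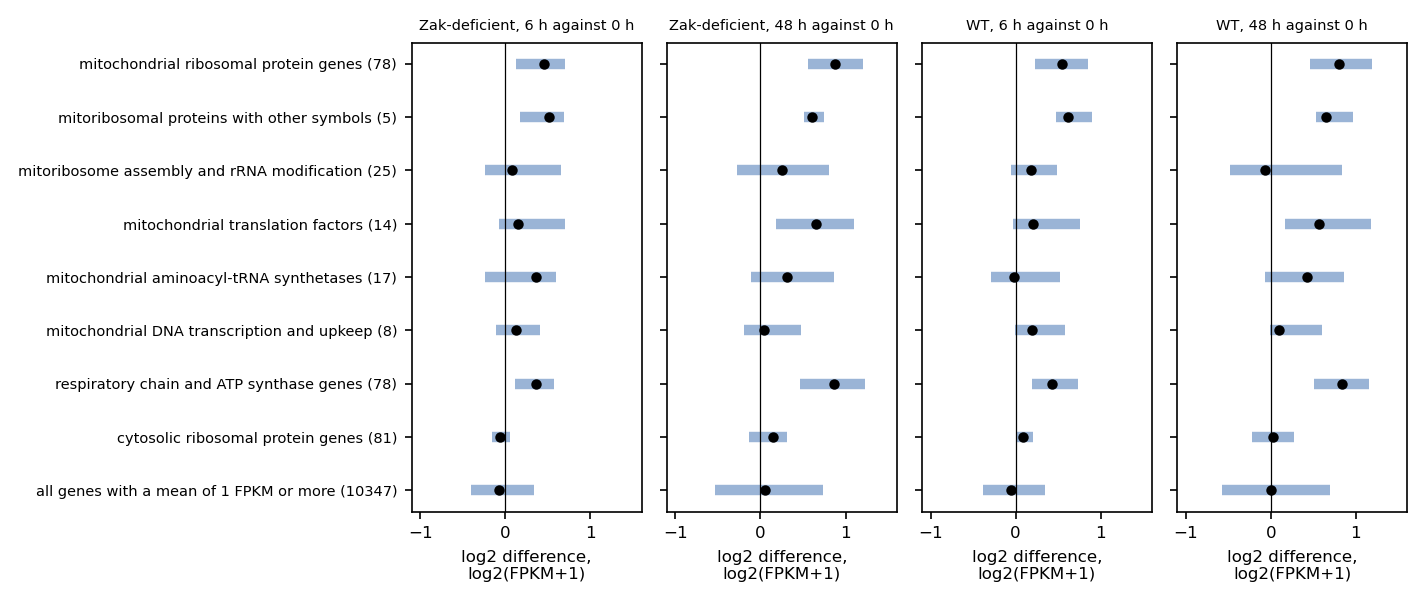
Median (point) and middle 50% (bar) of the difference in log2(FPKM+1) from 0 h over the genes of each list, at 6 h and 48 h under the Zak-deficient label and in WT, with the number of genes averaging at least 1 FPKM in parentheses. The mitochondrial ribosomal protein and respiratory chain lists lie to the right of 0 in all 4 panels, with medians of 0.80 and 0.84 in WT at 48 h, while cytosolic ribosomal protein genes stay near 0.

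Between the labels the members differed little. None of 78 was 2-fold or more higher or lower under the Zak-deficient label than in WT at any time. The background was 0.222% of genes higher and 0.0483% lower at 0 h, 0.116% and 0.126% at 6 h, and 1.8% and 0.435% at 48 h. The median log2 difference between the libraries labelled Zak-deficient and WT was -0.01 at 0 h, -0.10 at 6 h and -0.01 at 48 h. At 6 h, 60 of 78 members were below their WT level, beside 5498 of all 10347 genes, whose median was -0.02. The medians of the members and of all genes both moved with the scaling. At 6 h they were -0.02 and 0.05 with a common sum of FPKM and -0.06 and 0.02 with median-ratio scaling. With upper-quartile scaling they were -0.09 and -0.01. The members' median thus lay below that of all genes under each scaling. Other lists varied: 71 of 81 cytosolic ribosomal protein genes and 65 of 78 respiratory chain genes were below WT at 6 h, with medians of -0.19 for the cytosolic list and -0.16 for the respiratory chain. The 17 synthetases had a median of 0.12 with 11 above WT, the 8 biogenesis regulators 0.16 with 5 above, and the 25 assembly genes 0.00 with 13 above. The source of the members' displacement at 6 h was not tested.

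A 1.5-fold rule picked out 2 members, both higher at 48 h, beside 3.46% of all genes. None was lower at 48 h, beside 0.764%, and none in either direction earlier, beside 0.706% of all genes higher and 0.416% lower at 0 h, and 0.783% higher and 0.87% lower at 6 h. Mrpl27, whose bacterial relative reaches toward the site of peptide bond formation, stood at 81.5 FPKM under the Zak-deficient label at 48 h and 49.1 FPKM in the 48 h WT library, a 1.65-fold difference. At the earlier times its values were close, at 44.0 FPKM under the Zak-deficient label and 42.9 FPKM in WT at 0 h, and at 42.9 FPKM under the Zak-deficient label and 44.2 FPKM in WT at 6 h. Mrpl35 stood at 17.6 FPKM under the Zak-deficient label at 48 h and 11.2 FPKM in the 48 h WT library, a 1.52-fold difference. Of the 1 annotated Mrpl27 transcript examined, 39.0% of the 50-base stretches occur in other annotated genes, mostly outside the table. The greatest differences at the other times were below 1.5-fold. At 0 h Mrps21 was 1.43-fold lower under the Zak-deficient label, at 37.6 FPKM against 54.1 FPKM in WT. At 6 h Mrps25 was 1.44-fold lower, at 8.14 FPKM against 12.1 FPKM in WT, but it shares 73.9% of its 50-base stretches with Nr2c2, and its level is uncertain.

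The 2 responses, which use no library in common, were alike gene by gene. Across the 78 genes, the 6 h differences under the Zak-deficient label and in WT had a Pearson correlation of 0.92 and a Spearman correlation of 0.87, and the 48 h differences of 0.93 and 0.91. Over all 10347 genes they were 0.93 and 0.87 at 6 h and 0.96 and 0.94 at 48 h. These run across genes, which share libraries and are not replicates. All 8 members that were 2-fold or more higher at 6 h under the Zak-deficient label were so in WT, which is 66.7% of the 12 WT members. Over all 10347 genes the shared calls at 6 h were 84.2% of those under the Zak-deficient label and 85.6% of those in WT. These 8 were Mrpl12, Mrpl17, Mrpl21, Mrpl36, Mrps2, Mrps6, Mrps18b and Mrps28. At 48 h 23 members passed 2-fold under both labels, 82.1% of those under the Zak-deficient label and 85.2% of those in WT, beside 89.0% and 92.3% over all genes. Mrpl2, Mrpl19, Mrpl35, Mrpl54 and Mrps21 passed only under the Zak-deficient label, and Mrpl15, Mrpl17, Mrps12 and Mrps14 only in WT. Of these the greatest gap was that of Mrps21, whose log2 difference was 1.41 under the Zak-deficient label and 0.75 in WT. No member's 6 h or 48 h response differed 2-fold or more between the labels, beside 0.174% and 0.406% of genes with a higher and a lower response at 6 h and 1.25% and 0.532% at 48 h. By a 1.5-fold rule the 6 h response was lower under the Zak-deficient label in 1 member, Mrps25, beside 2.02% of all genes, and higher in none, beside 1.35%. The 48 h response was higher under the Zak-deficient label in 2 members, Mrpl27 and Mrps21, beside 3.65% of all genes, and lower in none, beside 1.09%.

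**Figure D5:**
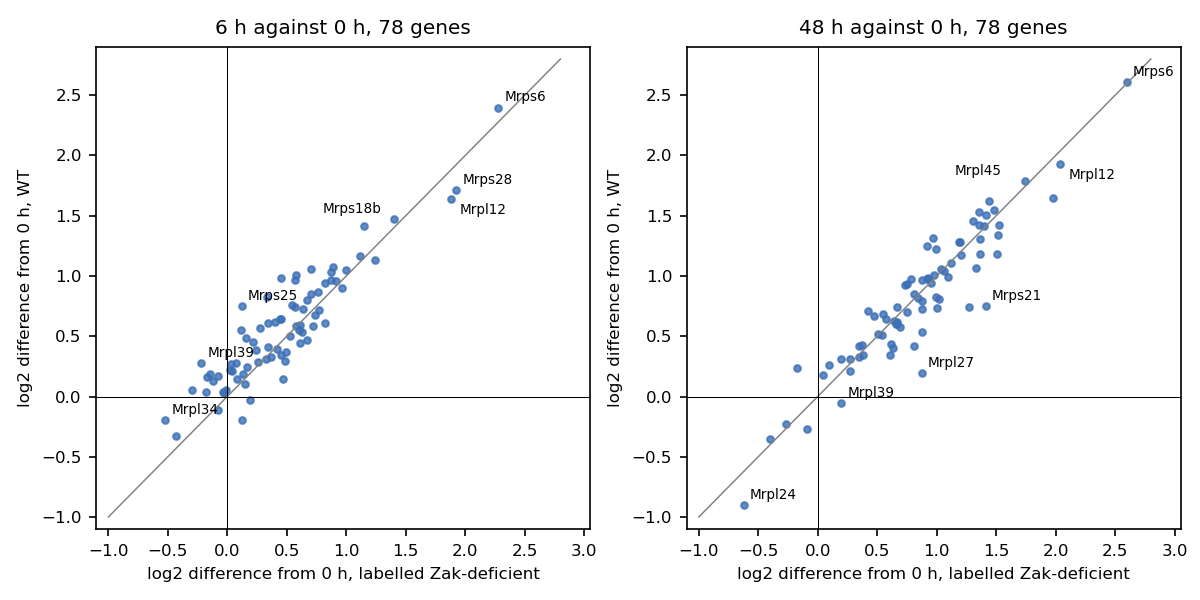
Difference in log2(FPKM+1) from 0 h under the Zak-deficient label (horizontal) and in WT (vertical) for the 78 members at 6 h (left) and 48 h (right), with the line of equal values. Points follow the line, with Mrps6 at the upper right and Mrpl27 and Mrps21 to the right of the line at 48 h.

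Some levels are uncertain because transcripts overlap. At least 20% of the 50-base stretches of 6 members (Mrps25, Mrps34, Mrpl19, Mrpl24, Mrpl13 and Mrpl43) occur in another gene of the table, by 1 GENCODE M21 transcript per member. Counting annotated genes outside the table as well adds Mrpl22, Mrpl23, Mrpl27, Mrpl33, Mrpl53, Mrps6, Mrps10, Mrps18b, Mrps18c, Mrps33 and Mrps36. Mrps34 shares 52.4% with Mapk8ip3, which was lower at 48 h than at 0 h, at 20.5 against 55.7 FPKM under the Zak-deficient label and 20.3 against 49.2 FPKM in WT, while Mrps34 was higher, at 30.9 against 19.1 FPKM under the Zak-deficient label and 31.7 against 20.3 FPKM in WT. Mrpl13 shares 23.9% with Mtbp, and both were higher at 48 h. Without the 6 members that share sequence within the table, the medians and counts of the list kept the values above within 0.1 log2 and 1.5 times. Members that reach 20% only through genes outside the table were kept in that check.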

How the data were processed

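The deposited table holds FPKM values, 1 per gene and library, as the authors left them. Bowtie, RSEM and mm10 were used per the submitters' processing notes; their versions are not stated in the labels. No reads were analysed. Gene identifiers were joined to RefSeq symbols, which 18326 of 18446 genes had. Depth is unknown; the commonest low value among 271 chemosensory receptor genes was 0.06 to 0.07 FPKM, and all member values were 1.88 FPKM or more.

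Libraries were compared by differences of log2(FPKM+1) and not rescaled. No test was fitted, since each group has 1 library; genes averaging at least 1 FPKM were counted at 2-fold. The members, lists and tests were chosen with earlier results of these data known. Members named in full were picked for their known roles or as extremes of level or response. Alternatives changed the scaling (common sum, median ratio, upper quartile), the fold (1.5), the minimum mean (none or 5 FPKM) and the pseudocount (0.1 or 5 FPKM). Centring on 20 bins of GC content and of transcript length (GENCODE M21, 98.7% of genes) and leaving out 6 members with sequence shared within the table were added after the data were seen. The calculation was tested on simulated data. Shared sequence was found from 50-base stretches of 1 GENCODE M21 transcript per member, searched on both strands in the transcripts of other genes. The longest transcript was used, with protein-coding ones preferred. GENCODE M21 may not be the authors' annotation. Coordinates and promoters are RefSeq's on GRCm38.p6, the assembly also called mm10. Calculations used pandas 2.3.3 and numpy 2.4.6 in Python 3.11.15 and plots matplotlib 3.10.9.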

Additional observations from a re-analysis of the deposited data

Results flagged for a closer look

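The responses of 2 members pointed in opposite directions under the labels, each by more than 0.2 on the log2 scale. With 1 library per group the difference was not tested in any of them, and both genes were picked out by these values. The share of all genes with such opposite responses was not counted, so whether 2 members exceed the background is unknown.

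Mrpl39, which encodes a large subunit protein with a domain related to threonyl-tRNA synthetase, stood at 46.9, 40.2 and 53.8 FPKM at 0, 6 and 48 h under the Zak-deficient label and 44.2, 53.6 and 42.5 FPKM in WT. At 6 h against 0 h its log2 difference was -0.22 under the Zak-deficient label and 0.27 in WT, a gap of -0.49. At 48 h against 6 h it was 0.41 under the Zak-deficient label and -0.33 in WT, a gap of 0.74. These gaps share the 6 h libraries.

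Mrps25 stood at 7.40, 8.14 and 11.2 FPKM under the Zak-deficient label and 6.80, 12.1 and 10.1 FPKM in WT. At 48 h against 6 h its log2 difference was 0.42 under the Zak-deficient label and -0.24 in WT, a gap of 0.66. Its overlapping neighbour Nr2c2 stood at 38.6, 20.3 and 10.4 FPKM under the Zak-deficient label and 39.3, 14.9 and 11.7 FPKM in WT, and the part of the shared sequence in the gap was not tested.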

How the results depend on the processing

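Over 33 results and 319 recomputed values, 279 stayed within 0.1 log2 or 1.5 times, 40 moved. Of 99 recomputed medians 6 changed sign, all of medians within 0.0139 of 0: that between the labels at 0 h became 0.01 with a common sum or GC and length centring, and that of the gap of 48 h responses fell below 0 with a common sum (-0.02), median-ratio scaling (-0.11), GC and length centring (-0.04) or without members sharing sequence (-0.0001). With a pseudocount of 5 FPKM, 5 members under the Zak-deficient label and 4 in WT were 2-fold higher at 6 h against 0 h, and 3 under the Zak-deficient label at 48 h against 6 h; medians were 0.71 under the Zak-deficient label and 0.65 in WT at 48 h, and 0.43 in WT at 6 h. With a common sum, medians at 48 h were 0.74 under the Zak-deficient label and 0.70 in WT, that at 48 h against 6 h under the Zak-deficient label was 0.22 with 3 members higher, and 7 were higher in WT at 6 h. With upper-quartile scaling, WT medians were 0.43 at 6 h and 0.69 at 48 h, with 7 members higher at 6 h. Median-ratio scaling gave 0.175 and 3 members higher at 48 h against 6 h under the Zak-deficient label. It gave -0.18 between the labels at 48 h, with 71 of 78 members below WT, and -0.11 for the gap of 48 h responses, but moved the median of all genes between the labels at 48 h by -0.157. The median of all genes also moved by -0.136 at 48 h against 6 h under the Zak-deficient label with that scaling, by -0.121 at 48 h under the Zak-deficient label with a common sum and by -0.100 at 48 h in WT with the upper quartile. Centring on GC content and length gave medians at 48 h of 0.59 under the Zak-deficient label and 0.60 in WT with 16 higher in WT, 0.42 in WT at 6 h, and 0.18 with 3 higher at 48 h against 6 h under the Zak-deficient label. In WT 1 member, Mrpl24, was 2-fold lower at 48 h against 0 h with a common sum, the upper quartile or this centring, and with this centring 1 was lower at 48 h against 6 h. By 1.5-fold, members higher against 0 h numbered 28 at 6 h and 57 at 48 h under the Zak-deficient label, and 34 and 54 in WT; at 48 h against 6 h they numbered 24 under the Zak-deficient label and 16 in WT. By that rule 1 was lower at 48 h against 0 h under each label and 1 at 48 h against 6 h in WT; 2 were higher between the labels at 48 h; the 6 h response was lower under the Zak-deficient label in 1, and the 48 h response higher in 2. The cause of the moves was not tested. The labels give no replicate numbers that pair libraries, and with 1 library per group leaving one out removes its group. A fit of genotype and time without their interaction, over all 6 libraries, was not run. Depth is unknown, so counting error of Mrpl17 and other low members could not be given.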
